A study of Mus musculus with 24 samples.

Results

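The genes described here are 10 tissue macrophage genes, Csf1r, Adgre1, Cd68, Lyz2, C1qa, C1qb, C1qc, Spic, Marco and Mertk, of 35817 gene symbols with estimated counts. They were chosen by their levels in these same libraries, namely for being higher in CD4 than in CD8 libraries after transplant, so their contrasts between cell types and between time points, and any difference built from these, are a description with no test. The study asked how a β-catenin transgene alters donor T cells in a mouse model of allogeneic hematopoietic stem cell transplantation. RNA was sequenced from sorted splenic CD4+ and CD8+ T cells in 24 libraries, 3 in each of 8 groups, and both cell types were taken from the same 3 mice of a genotype and time point. Levels are given as CPM, estimated counts scaled to library size by TMM (trimmed mean of M-values) over all 24 libraries, unless TPM, which divides by transcript length, is named.

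The Cat-Tg mice were heterozygous for an N-terminally deleted human β-catenin, cloned in the p1017 vector, which carries the proximal Lck promoter active in T cells. The DNA was injected in FVB mice, the founders were bred to C57BL/6, and the line was bred back to that strain. The WT mice were C57BL/6. Pre-tx cells came from spleens of untransplanted Cat-Tg or WT mice. Post-tx cells were sorted at day 7 from spleens of lethally irradiated BALB/c recipients that had received CD4+ and CD8+ T cells of the given genotype, mixed in equal numbers, together with T cell-depleted WT bone marrow. Post-tx cells were sorted for H-2Kb, which the infused T cells and the WT marrow share and the BALB/c host lacks. Every group was meant to hold purified T cells, and no macrophages were sorted in any of them. The labels name no batch, so a batch that followed genotype could not be told apart from it. The study states that its WT data were also shown in other publications from the same laboratory. The transgene is human and was not counted here, and mouse Ctnnb1, which did not differ in the CD4 post-tx libraries (log2 fold change -0.19, SE 0.288, adjusted p = 0.763 by edgeR's quasi-likelihood test), does not check the genotype.

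Macrophages of the spleen clear old red cells and dying leukocytes and trap particles from the blood. They depend on CSF1R signalling, and red pulp macrophages, which recycle heme iron, also depend on the transcription factor SPIC. Tissue macrophages are a main source of C1q, whose A, B and C chains assemble into the recognition part of the first complement component. None of the 10 genes belongs to the usual programme of a T cell.

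The following facts of the whole series bear on all that follows. Total estimated counts ran from 11135713 to 50519825 per library with a median of 27062440, so that 3 counts stood for 0.0594 to 0.2694 CPM. The 6 WT pre-tx libraries went against their labels, because Cd8a made up 50 to 65.4% of the Cd4 and Cd8a counts in both the CD4 and the CD8 ones, and because a list of 10 B cell genes summed to 5390–8250 CPM there against 38.2–607 in the other 18 libraries. In those other libraries Cd8a made up 0.0895–3.39% of the coreceptor counts in CD4 groups and 99–99.9% in CD8 groups. Comparisons that involve a WT pre-tx group are therefore comparisons with the libraries labelled so. In bulk RNA, fewer cells of a type and less RNA per cell cannot be told apart.

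The sequences just upstream of the RefSeq starts of the genes show what a classical macrophage promoter element looks like in this set. RefSeq (GRCm38.p6) gave a promoter for 7 of the 10 genes, all except Adgre1, C1qa and Csf1r. The 250 bases before the RefSeq start were searched on both strands for the PU box GAGGAA, the core bound by PU.1 and SPIC-type ETS factors. By GENCODE M21, used for the counts, the stretch searched for Spic lies inside the gene. Those for C1qc and Lyz2 lie partly inside theirs. The PU box was present in 4 of the 7, Cd68, C1qb, C1qc and Marco, against 23.3% of 32851 promoters. C1qb lies with C1qa and C1qc in a cluster on chromosome 4, and Marco encodes a scavenger receptor. The 4 promoters that hold the PU box are shown here with it in capitals. In C1qc it is on the opposite strand and so reads TTCCTC.
C1qb (chr4:136886201-136886450, minus strand): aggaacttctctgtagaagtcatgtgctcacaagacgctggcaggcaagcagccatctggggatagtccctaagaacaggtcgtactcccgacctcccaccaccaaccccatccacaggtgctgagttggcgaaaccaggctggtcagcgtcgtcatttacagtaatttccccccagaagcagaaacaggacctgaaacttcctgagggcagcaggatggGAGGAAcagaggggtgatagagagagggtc
C1qc (chr4:136892915-136893164, minus strand): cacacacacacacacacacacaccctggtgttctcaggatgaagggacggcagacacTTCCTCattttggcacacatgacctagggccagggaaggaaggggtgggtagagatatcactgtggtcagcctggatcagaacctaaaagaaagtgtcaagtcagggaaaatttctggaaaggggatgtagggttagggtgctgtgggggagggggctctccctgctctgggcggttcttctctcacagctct
Cd68 (chr11:69666171-69666420, minus strand): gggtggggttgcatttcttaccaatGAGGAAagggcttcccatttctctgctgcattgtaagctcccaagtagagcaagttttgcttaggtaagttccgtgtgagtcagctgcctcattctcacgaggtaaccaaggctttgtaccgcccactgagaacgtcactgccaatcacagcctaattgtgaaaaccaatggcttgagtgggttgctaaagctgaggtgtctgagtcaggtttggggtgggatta
Marco (chr1:120505025-120505274, minus strand): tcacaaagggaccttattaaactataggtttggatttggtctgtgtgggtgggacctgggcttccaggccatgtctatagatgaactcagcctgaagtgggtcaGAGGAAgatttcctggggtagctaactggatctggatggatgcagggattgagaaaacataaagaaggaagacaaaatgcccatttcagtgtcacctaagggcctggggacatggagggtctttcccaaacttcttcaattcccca
The PU box began 30 bases before the start in C1qb, 193 in C1qc, 225 in Cd68 and 146 in Marco. The AP-1 element TGANTCA was found in 1 of the 7, Cd68, against 6.75% of all promoters, and the E box CACGTG in 0 of the 7 against 6.02%. A match in these letters is not a measurement of binding.

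**Figure D1:**
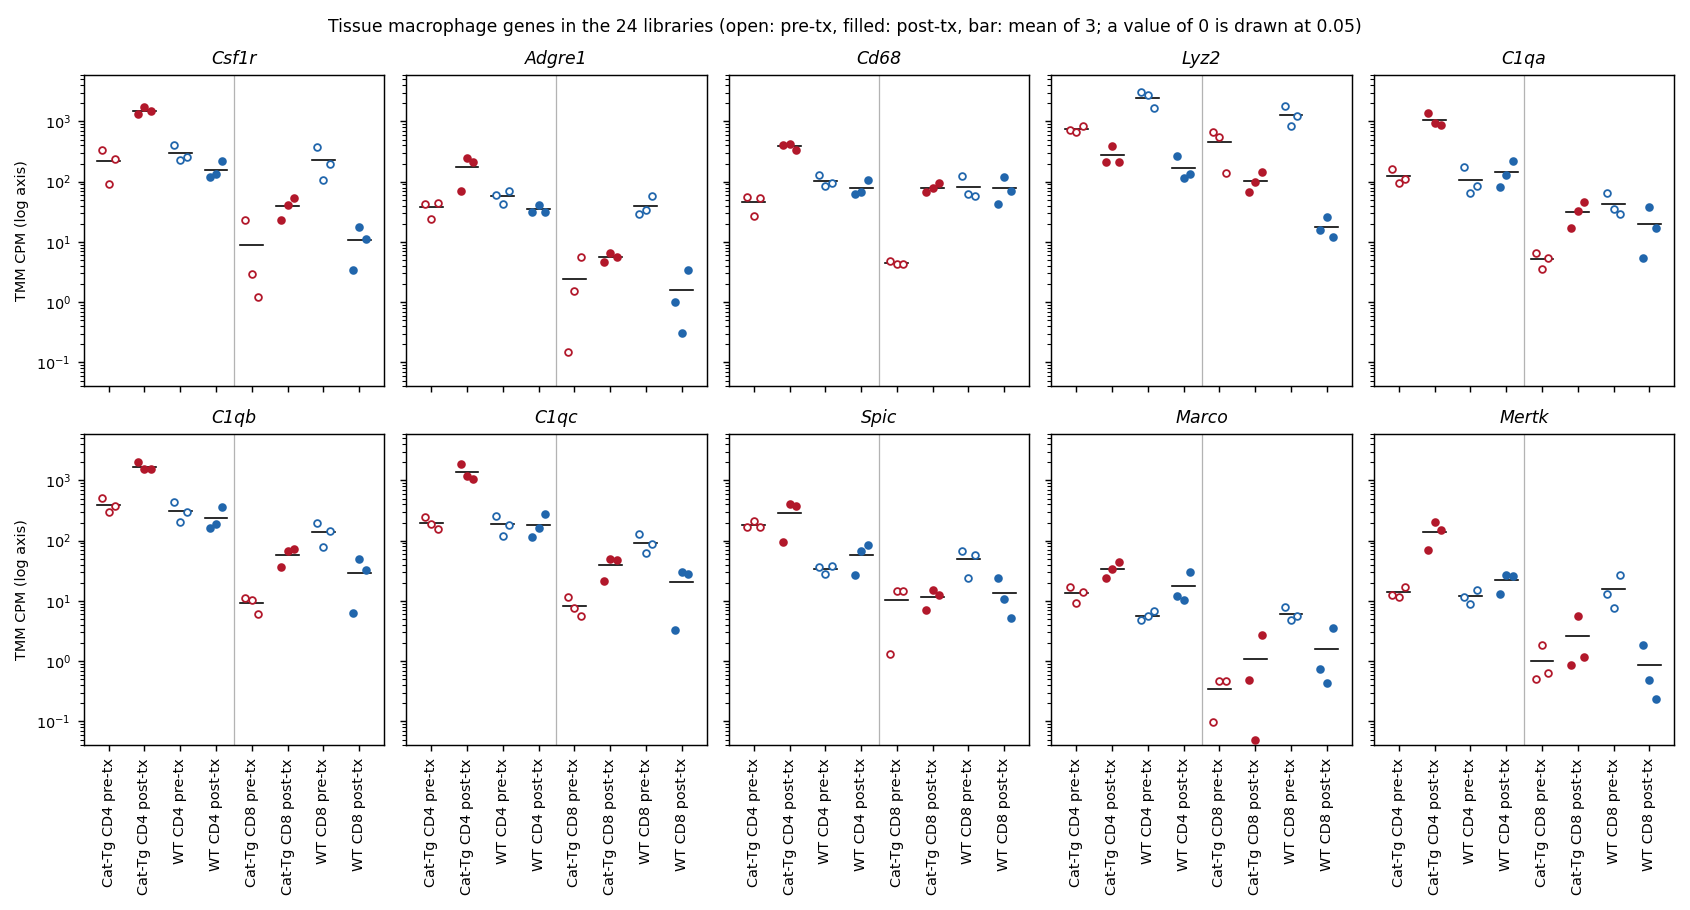
TMM CPM (log axis) of each of the 10 genes in every library, with open points for pre-tx, filled points for post-tx, red for Cat-Tg, blue for WT and a bar at the mean of 3 libraries (a value of 0 is drawn at 0.05). In 9 of the 10 genes, all except Lyz2, the Cat-Tg CD4 post-tx group has the highest mean of the 8 groups.

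The first question was how far the genes were present in the sorted CD4 cells of Cat-Tg donors before and after transplant. Csf1r, the receptor for CSF1 and IL-34 on which macrophages depend, was at 1310, 1750 and 1490 CPM in the Cat-Tg CD4 post-tx libraries and at 333, 91.7 and 237 before transplant. The post-tx libraries were all above the pre-tx ones, and the mean was 6.87-fold higher (1520 ± 218 against 221 ± 122, SD, n = 3). Adgre1, which encodes the F4/80 antigen, was at 69.3, 250 and 215 CPM post-tx and at 43.1, 24.3 and 45 pre-tx, a 4.76-fold ratio of means with no overlap. Its lowest post-tx value was in replicate 1, the shallowest library of the series.

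The 3 C1q chains had the highest post-tx TPM of the set. C1qa was at 1380, 939 and 882 CPM in Cat-Tg CD4 post-tx libraries and at 163, 95 and 112 pre-tx, an 8.65-fold ratio. C1qb was at 2010, 1550 and 1540 against 506, 299 and 378, a 4.31-fold ratio. C1qc was at 1860, 1170 and 1070 against 249, 187 and 158, a 6.89-fold ratio, and in none of the chains did the groups overlap. The 3 transcripts share no stretch of 31 bases with each other or with another gene, so their counts were separate.

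Cd68, a lysosomal membrane glycoprotein of macrophages that other leukocytes also make, was at 402, 421 and 341 CPM post-tx and at 56.3, 26.9 and 53.5 pre-tx. Its ratio was 8.51-fold. Mertk, a receptor tyrosine kinase that binds bridging proteins on dying cells, was at 69.3, 201 and 152 CPM post-tx and at 12.7, 11.7 and 17.1 pre-tx. At 10.2-fold this was the highest ratio among the 10 genes, and replicate 1 was again the lowest of the post-tx libraries. Marco, a scavenger receptor of marginal zone macrophages with the lowest post-tx TPM of the set, was at 23.8, 34 and 43.8 CPM against 16.7, 9.08 and 14.3, a 2.53-fold ratio without overlap.

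Spic and Lyz2 departed from this pattern. Spic was at 95.7, 409 and 373 CPM post-tx and at 171, 213 and 169 pre-tx, so replicate 1 lay under every pre-tx library and the groups overlapped. Lyz2, which encodes the lysozyme of macrophages, monocytes and neutrophils, was at 214, 394 and 211 CPM post-tx and at 717, 655 and 837 pre-tx, which is 2.69-fold lower after transplant. In all, 8 of the 10 genes were higher without overlap, 1 was lower without overlap and 1 overlapped. Over all 17227 genes tested in CD4 libraries by edgeR, 16.2% were called higher and 28.9% lower in this comparison (adjusted p at or under 0.05), which is given for scale and not as a test, since the genes were chosen with this contrast known. A call and a lack of overlap are different criteria. The share of all genes without overlap was not computed. Counts without overlap and shares called, here and below, therefore cannot be compared directly.

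Per transcript length, the order of the genes also differed between the time points. In the Cat-Tg CD4 post-tx libraries C1qb had the highest TPM (2100 ± 91.2, SD, n = 3), followed by C1qc (1470 ± 250) and C1qa (1380 ± 145), whose values lie within their spread of each other. Csf1r (502 ± 56.9 TPM) and Cd68 (432 ± 76.9 TPM) came next and did not differ beyond their spread. Spic (285 ± 195 TPM) and Lyz2 (277 ± 139 TPM) followed, then Adgre1 (68.5 ± 39.9 TPM), Mertk (37.9 ± 20.6 TPM) and Marco (21.6 ± 7.86 TPM). In the Cat-Tg CD4 pre-tx libraries Lyz2 stood first instead (634 ± 138 TPM), ahead of C1qb (442 ± 166 TPM). The C1q chains together made up 70.4–81.7% of the summed TPM of the 10 genes post-tx and 42.5–52.7% pre-tx, while Lyz2 made up 2.75–6.06% post-tx and 33–43.3% pre-tx.

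The balance within the C1q complex shifted as well. C1qb held 53–59.5% of the C1q TPM in Cat-Tg CD4 pre-tx libraries and 39.3–45.1% post-tx, and C1qa 17.9–19.3% and 27.4–28.3%. The WT CD4 post-tx libraries had nearly the same proportions as the Cat-Tg ones, with C1qb at 40.6–46.2% and C1qa at 25–29.5%. The ratio of Spic to Csf1r, both in CPM, was 0.0728–0.25 in Cat-Tg CD4 post-tx libraries and 0.514–2.32 in pre-tx ones, with no overlap. The genes therefore did not move by a common factor.

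In the WT CD4 libraries the picture was different. Csf1r was at 119, 132 and 222 CPM post-tx and at 408, 233 and 252 in the ones that carry the WT CD4 pre-tx label, a lower level without overlap. C1qb was at 163, 192 and 358 CPM post-tx and at 440, 205 and 297 pre-tx, which overlap. Lyz2 was at 264, 116 and 133 CPM post-tx against 3040, 2770 and 1640. Marco was the only gene that was higher post-tx without overlap, at 12, 10.2 and 30.5 CPM against 4.75, 5.55 and 6.76. Csf1r, Adgre1 and Lyz2 were lower without overlap and the other 6 genes overlapped (14.7% of genes tested were called higher and 9.61% lower). The libraries labelled WT CD4 pre-tx held 6760–8250 CPM of B cell list genes and 2400–3140 CPM of T cell list genes, against 443–607 and 6410–7880 before transplant in Cat-Tg CD4, and the part of this makeup in the comparison was not tested.

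In the Cat-Tg CD8 libraries all 10 genes had lower means than in CD4 at both time points, and the ratio of post-tx to pre-tx was above that in CD4 for some genes and under it for others, such as Mertk at 2.56-fold. Csf1r was at 23, 41.7 and 53.9 CPM post-tx and at 22.8, 2.99 and 1.21 pre-tx, a 4.38-fold ratio of means with 23 and 22.8 CPM as the nearest values of the groups. Cd68 was at 66.7, 78.8 and 93.6 CPM against 4.88, 4.36 and 4.32, a 17.6-fold ratio. C1qa was at 16.8, 33 and 45.4 CPM against 6.52, 3.59 and 5.42, C1qb 6.34-fold and C1qc 4.8-fold higher. These 5 genes did not overlap, and the other 5 did, Marco among them with 0.488, 0 and 2.77 CPM post-tx (8.72% of the 15960 genes tested in CD8 libraries were called higher and 5.23% lower). Lyz2 was at 68.2, 99.1 and 143 CPM post-tx and at 659, 556 and 137 pre-tx. In the same order of pre-tx libraries the summed neutrophil list stood at 3420, 2680 and 348 CPM. The part of neutrophils in these Lyz2 levels was not tested. Over the 10 genes the median log2 ratio of post-tx to pre-tx means was 2.51 in Cat-Tg CD4 and 1.89 in Cat-Tg CD8 libraries.

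In the WT CD8 libraries none of the 10 genes was higher post-tx without overlap, and 7 were lower. Csf1r was at 3.38, 17.7 and 11 CPM post-tx and at 381, 106 and 197 in the ones with the WT CD8 pre-tx label. Lyz2 was at 15.5, 26.1 and 12 CPM against 1800, 850 and 1210, the widest gap of any of these comparisons. Cd68, at 43.1, 119 and 69.8 CPM against 125, 61.8 and 57.9, overlapped (13.2% of genes tested were called higher and 10.4% lower).

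**Figure D2:**
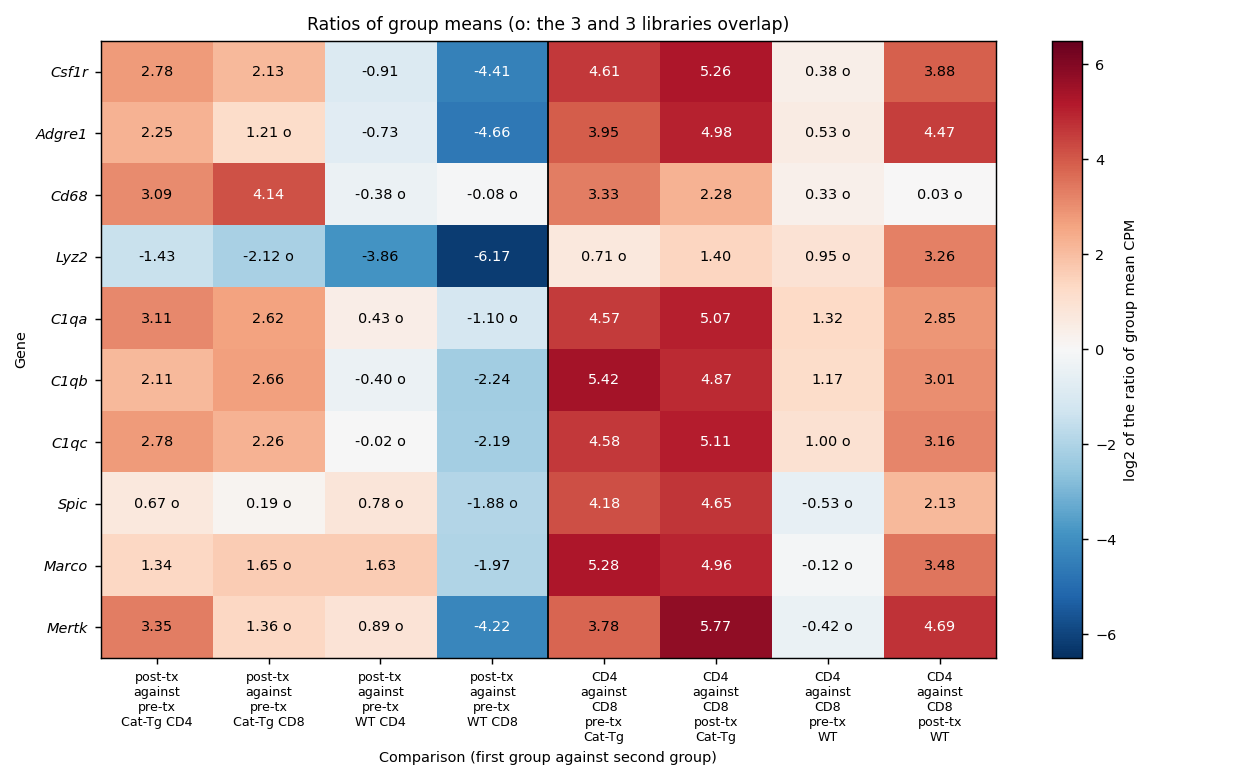
Colour and number give the log2 ratio of group mean CPM for each gene (rows) in 8 comparisons (columns), with o where the libraries of both groups overlap. The columns of CD4 against CD8 in Cat-Tg are positive for all 10 genes both pre-tx and post-tx, with medians of 4.38 and 4.97.

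The second question was how the CD4 and CD8 libraries compared at 1 time point. After transplant all 10 genes were higher in the Cat-Tg CD4 than in the Cat-Tg CD8 libraries without overlap (4.51% of the 19076 genes tested over all libraries were called higher). The ratio was 54.5-fold for Mertk, 38.4-fold for Csf1r, 34.4-fold for C1qc, 33.6-fold for C1qa, 31.6-fold for Adgre1, 31.2-fold for Marco, 29.2-fold for C1qb and 25.2-fold for Spic. It was 4.87-fold for Cd68 and 2.64-fold for Lyz2. In WT post-tx libraries 9 of the 10 were higher in CD4 without overlap (7.16% of genes called higher), from 4.39-fold for Spic to 25.8-fold for Mertk. Cd68 was the exception, with WT CD4 means of 78.9 ± 24.7 CPM and WT CD8 means of 77.2 ± 38.3 CPM (SD, n = 3).

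This gap between cell types was present before transplant. For scale, 1.16% of genes tested were called higher in Cat-Tg CD4 pre-tx libraries by edgeR, a different criterion from lack of overlap. Of the 10 genes, 9 were higher there in CD4 without overlap. The ratio was 42.9-fold for C1qb, 38.8-fold for Marco, 24.5-fold for Csf1r and 13.7-fold for Mertk. Lyz2, 1.63-fold higher in CD4, overlapped. The median log2 ratio of CD4 to CD8 means over the 10 genes was 4.38 pre-tx and 4.97 post-tx in Cat-Tg libraries and 3.21 in WT post-tx libraries. It was 0.46 between the libraries labelled WT CD4 and WT CD8 pre-tx, where 8 genes overlapped and where the coreceptors did not separate the labels. Over all genes tested there, 0.0315% were called higher in CD4 and 0.00524% lower by edgeR, again a different criterion. The high CD4 level was therefore not limited to post-tx libraries, and in Cat-Tg the ratio of post-tx to pre-tx was above 4-fold in both cell types for Csf1r, Cd68, C1qa, C1qb and C1qc.

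The rule that chose the genes did not name genotype, so genotype was tested. The rise after transplant known at that choice was in Cat-Tg CD4 libraries, where 8 genes were higher without overlap. In WT CD4 libraries 1 gene was higher and 3 were lower. The choice may thus have favoured genes high in Cat-Tg CD4 post-tx libraries, and the test is not independent of it. In the CD4 post-tx libraries 8 of the 10 genes were higher in Cat-Tg than in WT by edgeR's quasi-likelihood test with Benjamini-Hochberg adjustment over 17227 genes, of which 3.7% were called higher and 6.47% lower. Csf1r showed the largest difference (log2 fold change 3.05, SE 0.394, adjusted p = 0.000376, edgeR), and its lowest Cat-Tg library, at 1310 CPM, was far above the highest WT library, at 222. C1qc differed by 2.69 (SE 0.354, adjusted p = 0.000442), C1qa by 2.68 (SE 0.393, adjusted p = 0.00088) and C1qb by 2.63 (SE 0.331, adjusted p = 0.000314), on the log2 scale. Mertk differed by 2.44 (SE 0.4, adjusted p = 0.00195), Adgre1 by 2.12 (SE 0.399, adjusted p = 0.0042), Cd68 by 2.08 (SE 0.303, adjusted p = 0.000861) and Spic by 2.08 (SE 0.447, adjusted p = 0.00813). Marco (0.74, SE 0.42, adjusted p = 0.307) and Lyz2 (0.44, SE 0.339, adjusted p = 0.473) did not pass. The median over the 10 genes was 2.28, against -0.19 over all genes tested.

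**Figure D3:**
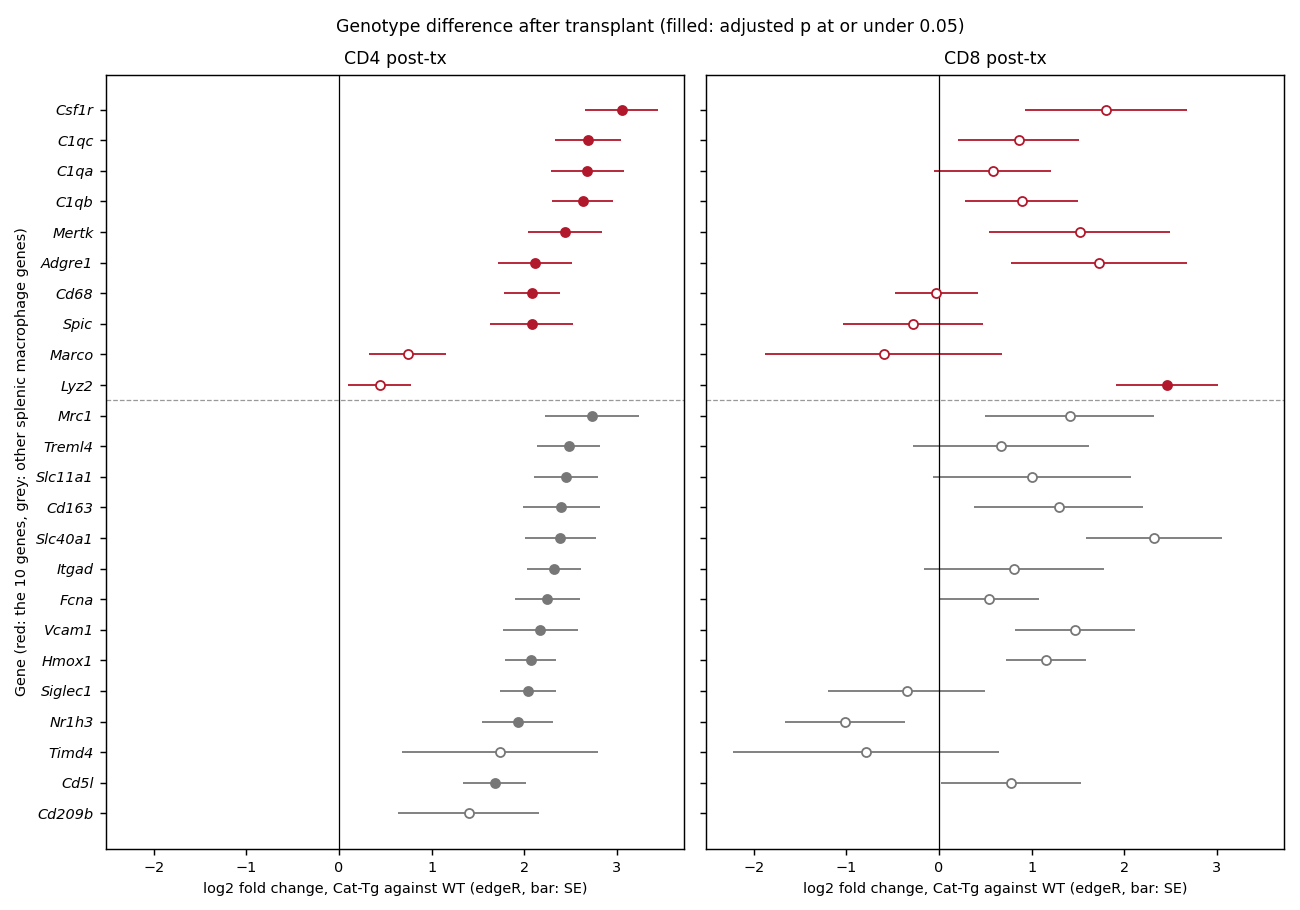
Log2 fold change of Cat-Tg against WT (edgeR, bars are standard errors) in CD4 post-tx (left) and CD8 post-tx (right) libraries, for the 10 genes in red and other splenic macrophage genes in grey, filled where the adjusted p is at or under 0.05. In CD4 post-tx 8 red and 12 grey points are filled, and in CD8 post-tx only Lyz2 is (Cd209b was not tested there).

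In the CD8 post-tx libraries 1 of the 10 genes was called, with 1.1% of all genes called higher and 0.57% lower. Lyz2 was higher in Cat-Tg (log2 fold change 2.46, SE 0.552, adjusted p = 0.0413, edgeR), with 68.2 to 143 CPM against 12 to 26.1. This call was lost when the WT pre-tx libraries were left out and when either Cat-Tg replicate 1 or 2 or WT replicate 3 was left out, each of which left 0 of the 10 called. Csf1r differed by 1.8 (SE 0.872, adjusted p = 0.276) and C1qb by 0.89 (SE 0.608, adjusted p = 0.436), and neither passed in edgeR. The difference between the genotype effects in CD4 and CD8 post-tx libraries rests on the contrast of cell types by which the genes were chosen, so it is given as a description. It was largest relative to its error in Cd68 (difference of log2 fold changes 2.25, SE 0.529), the 1 gene of the 10 called in the fit over all libraries, beside 0.33% of all genes called higher. That fit does not take into account that the CD4 and CD8 libraries share mice, and 0 were called with the replicate number as a block. Leaving out any of 11 of the 12 post-tx libraries also left 0 called, and leaving out WT CD8 post-tx replicate 1, in which C1qa was at 5.34 CPM against 37.7 and 17.3 in the others, left 4. A genotype difference particular to CD4 was thus not shown for any of the 10 genes.

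Before transplant the genotypes were set against the WT libraries that went against their labels. In CD4 pre-tx Spic (2.67, SE 0.458, adjusted p = 0.000793) and Marco (1.46, SE 0.432, adjusted p = 0.0243) were higher in Cat-Tg by edgeR, and Cd68 (-0.93, SE 0.294, adjusted p = 0.0338) and Lyz2 (-1.52, SE 0.345, adjusted p = 0.00523) were lower, beside 13.3% of genes called higher and 7.18% lower. With any 1 of the 6 libraries left out fewer genes were called, 2 without WT CD4 pre-tx replicate 1 and 3 without any of the others. In CD8 pre-tx 7 of the 10 genes were lower in Cat-Tg and none was higher (4.48% of all genes were called lower and 4.5% higher), from -3.04 for C1qa (SE 0.683, adjusted p = 0.0117) to -4.66 for Csf1r (SE 0.982, adjusted p = 0.00804). Lyz2, Marco and Spic did not pass there. The post-tx against pre-tx change was called more positive in Cat-Tg than in WT for 8 genes in CD4 (as were 7.28% of all genes) and 8 in CD8 (5.93%), which is a description, since it rests on the contrast of time points known when the genes were chosen and on the WT pre-tx libraries.

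Other genes of splenic macrophages, none of them among the 10, were read from a list of 14, which was drawn up with results of these libraries known. In Cat-Tg CD4 libraries 12 of the 14 were called higher post-tx than pre-tx, as were 16.2% of all genes tested. The median log2 fold change was 2.18, against -0.38 over all genes. Siglec1, the sialoadhesin of marginal metallophilic macrophages, rose most (4.83, SE 0.343, adjusted p = 2.54e-07, edgeR). Slc40a1, which exports iron (2.93, SE 0.391, adjusted p = 5.35e-05), Cd163, the receptor for hemoglobin bound to haptoglobin (2.83, SE 0.423, adjusted p = 0.00014), and Hmox1, which degrades heme (1.69, SE 0.27, adjusted p = 0.000236), rose as well by edgeR. Timd4 (-2.05, SE 1.05, adjusted p = 0.123) and Cd209b (0.37, SE 0.75, adjusted p = 0.705), of marginal zone and resident macrophages, did not pass. Of the same list 6 of 14 rose in WT CD4, 3 of 13 in Cat-Tg CD8 and 0 of 13 in WT CD8 libraries, where 8 fell. Over all genes tested 14.7%, 8.72% and 13.2% were called higher in the same order, and 10.4% were called lower in WT CD8.

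Between cell types, 4.51% of all genes tested were called higher in CD4 than in CD8 post-tx libraries in Cat-Tg and 7.16% in WT. Of the 14, 12 were called higher in Cat-Tg (median log2 fold change 5.09) and 12 in WT (median 3.62, 11 with the replicate block). Slc40a1 (5.82, SE 0.717, adjusted p = 8.76e-06), Vcam1, an adhesion molecule of red pulp macrophages (5.71, SE 0.661, adjusted p = 4.78e-06), and Fcna, a ficolin made by macrophages (5.2, SE 0.529, adjusted p = 8.91e-07), were among them in Cat-Tg by edgeR. Before transplant 11 of the 14 were called higher in Cat-Tg CD4 (1.16% of all genes tested). In CD4 post-tx libraries 12 of the 14 were higher in Cat-Tg than in WT (median 2.21), again all except Timd4 and Cd209b, with Mrc1, the mannose receptor, at 2.73 (SE 0.508, adjusted p = 0.00398, edgeR) and Hmox1 at 2.07 (SE 0.273, adjusted p = 0.000442). In CD8 post-tx libraries 0 of 13 were called between the genotypes. Over all genes tested 3.7% were called higher in Cat-Tg in CD4 post-tx and 1.1% in CD8 post-tx libraries. The list was drawn up with results of these libraries known, so it is not independent evidence of direction.

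Among the genes whose profile was most like the mean of the 10 over the 24 libraries, of 13842 ranked, were Hmox1 (Pearson r = 0.979), Axl (0.969), Fcna (0.965), Cd5l (0.961), Plxnb2 (0.959), Pla2g7 (0.958), Abcc3 (0.945), Cadm1 (0.941) and Hcar2 (0.937). The correlations are of log2 CPM and all points share the same libraries and depth. Hmox1, Fcna and Cd5l are on the splenic macrophage list. Within the set, 8 of the 10 genes had an r of 0.826–0.969 with the mean of the other 9, while Cd68 had 0.699 and Lyz2 0.395.

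Genes that work with the 10 were counted in the same comparison of Cat-Tg with WT CD4 post-tx libraries. In it 3.7% of all genes tested were called higher and 6.47% lower. Of CSF1R ligands and adaptors 4 of 7 tested were higher, among them the signalling adaptors Fcer1g (2.11, SE 0.289, adjusted p = 0.000554, edgeR) and Tyrobp (1.96, SE 0.293, adjusted p = 0.000987). Of Fc and scavenger receptors 7 of 10 were higher, including the inhibitory receptor Fcgr2b (2.93, SE 0.468, adjusted p = 0.00163). Of macrophage transcription factors Spi1, which encodes PU.1, was higher (2.11, SE 0.279, adjusted p = 0.000442), while Irf8 just missed (0.9, SE 0.278, adjusted p = 0.0506). Of genes for the uptake of dying cells 2 of 10 were higher, among them Axl, a relative of Mertk (2.39, SE 0.301, adjusted p = 0.000314), and of lysosomal genes 7 of 16. Of other complement genes 5 of 12 were higher and 1 was lower, with C5ar1, the C5a receptor, at 2.75 (SE 0.396, adjusted p = 0.000815) and Cfp, properdin, at 2.36 (SE 0.292, adjusted p = 0.000294).

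Markers of other cell types were counted beside them, with the same shares of 3.7% higher and 6.47% lower over all genes. Counts of 1 or 2 in a short list are not read as a result. All 11 tested genes of the red cell list were higher in Cat-Tg than in WT CD4 post-tx libraries (median 4.38), and their sum was 4590–27200 CPM against 652–1110, with Hba-a1 at 4.38 (SE 0.762, adjusted p = 0.00398, edgeR). Of the neutrophil list 0 of 12 were called and of the monocyte list 1 of 9, with S100a8 at 0.48 (SE 0.375, adjusted p = 0.492) and Ly6c2 at -0.14 (SE 0.225, adjusted p = 0.776). Within the monocyte list, the Cat-Tg range of Cd14 (90.5–135 CPM) lay above its WT range (11.8–13.1). The ranges overlapped for Chil3 (97.3–468 against 71–99.6) and Ly6c2 (124–193 against 153–155). Ly6c2 averaged 1040 CPM in the WT CD8 post-tx libraries, so it does not mark monocytes alone here. Of the dendritic cell list 2 of 9 were higher, and of the B cell list 2 of 10 were higher and 2 lower at sums of only 38.2–66.6 CPM in both groups. Of the platelet list 2 of 5 were higher, of mast cell and basophil genes 0 of 7 were called, and of the NK cell and the stroma and endothelium lists 1 of 5 and 1 of 7 were lower. Of the T cell list 1 of 11 was lower. The summed CPM of the 10 genes was 1.08–1.43 times that of the T cell list in Cat-Tg CD4 post-tx libraries, 0.118–0.214 times in WT CD4 post-tx and 0.0125–0.0452 times in CD8 post-tx libraries. The part of other cells in these levels was not tested.

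**Figure D4:**
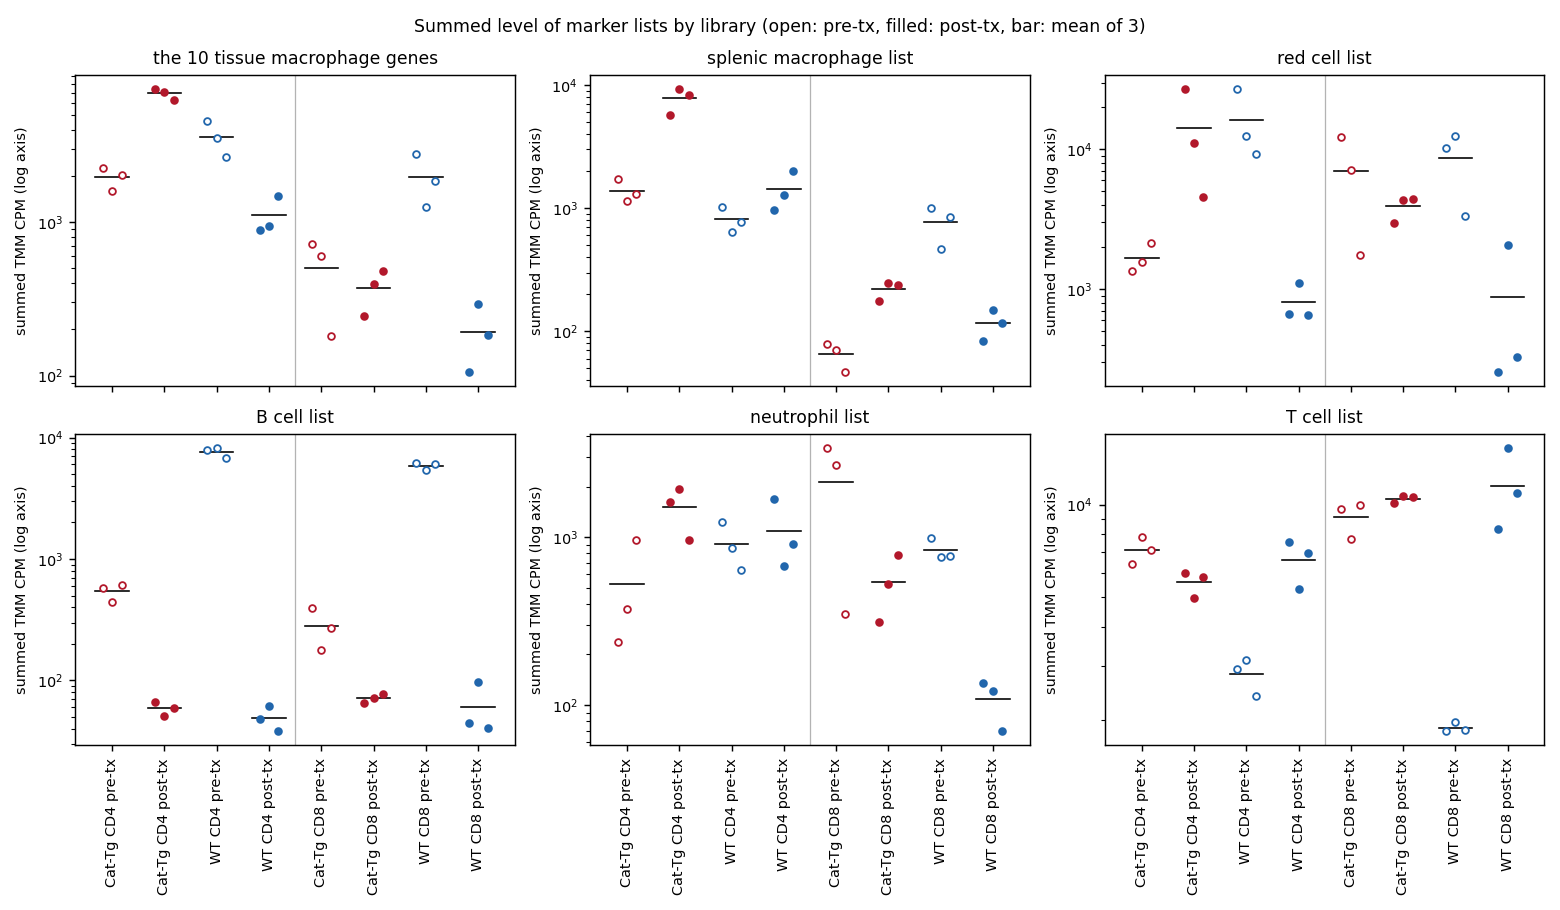
Summed TMM CPM (log axis) of the 10 genes and of 5 marker lists in every library, with open points for pre-tx, filled points for post-tx, red for Cat-Tg, blue for WT and a bar at the mean of 3. The 10 genes and the splenic macrophage list are highest in Cat-Tg CD4 post-tx libraries, at 6320–7440 and 5760–9340 CPM, and the libraries labelled WT pre-tx are highest for B cell and lowest for T cell genes.

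H2-Ea-ps, the MHC class II Eα gene, was read because its promoter is deleted in C57BL/6 and intact in BALB/c. The WT donors were C57BL/6, the Cat-Tg donors were bred back to that strain, and the recipients were BALB/c. H2-Ea-ps was at 168, 496 and 406 CPM in Cat-Tg CD4 post-tx libraries and at 43.8, 54.6 and 95.6 in WT CD4 post-tx libraries. It was at 2.29, 1.91 and 7.72 CPM in Cat-Tg CD4 pre-tx libraries and at 0.572, 1.04 and 1.54 in the WT CD4 libraries with that label. All 6 CD4 post-tx libraries were thus above all 6 CD4 pre-tx libraries. The rise passed in Cat-Tg (log2 fold change 6.15, SE 0.611, adjusted p = 6.02e-06, edgeR) and in WT (6.05, SE 0.628, adjusted p = 6.53e-06).

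H2-Eb1, the partner class II gene that both strains transcribe, was at 614, 518 and 501 CPM in Cat-Tg CD4 post-tx libraries and at 325, 251 and 322 pre-tx (log2 fold change 0.54, SE 0.225, adjusted p = 0.0595, edgeR). In WT CD4 post-tx libraries it was at 79.3, 78.1 and 124 CPM, under all 3 Cat-Tg ones. The ratio of H2-Ea-ps to H2-Eb1 CPM was 0.273–0.956 in the 6 CD4 post-tx libraries and 0.000147–0.024 in the 6 CD4 pre-tx libraries. H2-Ea-ps was higher in CD4 than in CD8 post-tx libraries in Cat-Tg (5.1, SE 1.06, adjusted p = 0.00305) and in WT (4.08, SE 1.02, adjusted p = 0.00824) by edgeR. The CD8 post-tx libraries held 9.24, 12.9 and 9.04 CPM of H2-Ea-ps in Cat-Tg and 10.1, 0.367 and 1.19 in WT. The Cat-Tg CD8 pre-tx libraries, from untransplanted mice with no BALB/c host, held 12.9, 11.2 and 1.89 CPM. Values of that size were thus also read without a host. CD8 values did not separate the time points by edgeR (0.27, adjusted p = 0.888 in Cat-Tg and 1.89, adjusted p = 0.31 in WT).

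Both class II transcripts were higher in Cat-Tg than in WT CD4 post-tx libraries, as 8 of the 10 genes were. H2-Ea-ps differed by 2.24 (SE 0.507, adjusted p = 0.0111, edgeR) and H2-Eb1 by 2.32 (SE 0.235, adjusted p = 8.81e-05, edgeR). Both strains transcribe H2-Eb1, so its difference cannot tell host cells from donor cells. Over these 6 libraries the r of log2 CPM with the mean of the 10 genes was 0.972 for H2-Ea-ps and 0.976 for H2-Eb1, given as a description of 2 groups of 3. Over all 24 libraries it was 0.364 for H2-Ea-ps and 0.65 for H2-Eb1. The ratio of H2-Ea-ps to the summed CPM of the 10 genes was 0.0225–0.0697 in Cat-Tg and 0.0493–0.0644 in WT CD4 post-tx libraries. The lowest of these was again Cat-Tg replicate 1, in which Csf1r, Adgre1, Spic, Marco and Mertk were also lowest among Cat-Tg CD4 post-tx libraries. C1qa, C1qb, C1qc and H2-Eb1 were highest in that same library. H2-Ea-ps shares no stretch of 31 bases with another gene. The H-2Kb gate is meant to leave out cells of the BALB/c host, and the part of host cells in the levels of the 10 genes was not tested.

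**Figure D5:**
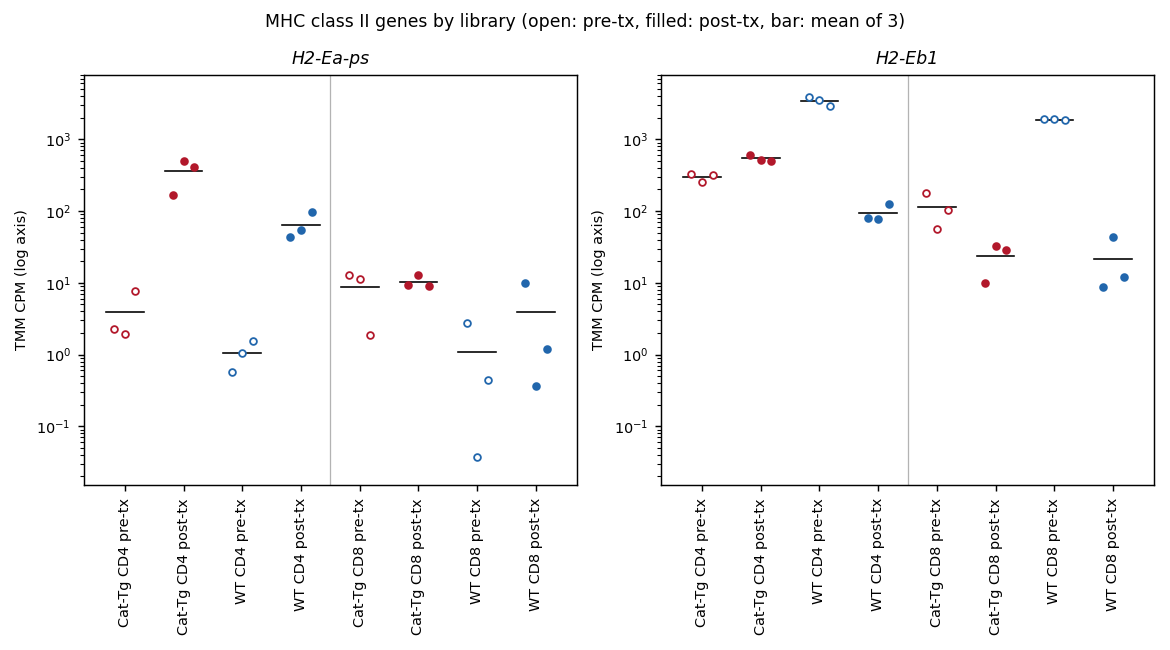
TMM CPM (log axis) of H2-Ea-ps (left) and H2-Eb1 (right) in every library, with open points for pre-tx, filled points for post-tx, red for Cat-Tg, blue for WT and a bar at the mean of 3. H2-Ea-ps is at 43.8 CPM or more in the 6 CD4 post-tx libraries and at 7.72 or less in the 6 CD4 pre-tx libraries, whereas H2-Eb1 is highest in the libraries labelled WT pre-tx.

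Transcript assignment limits 3 of the 10 genes. Lyz2 shares 32.8% of its 31-base stretches with its paralog Lyz1, whose mean was at most 6.63 CPM in any group. Csf1r shares 14.9%, mostly with Hmgxb3, which overlaps it on the opposite strand and whose group means were 27.1–52.1 CPM, so the lowest Csf1r values are uncertain at that scale. Spic shares 5.79%, and in CD4 post-tx libraries 42.8% of its counts were assigned to Spic-201 and 50.8% to Spic-202, annotated for nonsense-mediated decay.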

How the data were processed

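RNA from 24 libraries of sorted splenic T cells (SMART-Seq HT, Nextera XT, neither of which marks strand) was quantified by the authors with kallisto 0.46.2 into deposited tables of estimated counts and TPM per transcript. The processing notes name mm9, and the release of the transcript index is not given in the sources used here. Of 117497 transcripts, 116374 were matched to GENCODE M21 by identifier without version, holding 99.57–99.75% of the counts, and estimated counts were summed to 35817 symbols and rounded. Depth was 11135713–50519825 counts. Value columns left unused numbered 0.

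Genes over 1 CPM in at least 3 libraries were fitted with edgeR 4.0.16 (R 4.3.3) by robust quasi-likelihood with TMM, 12 libraries per cell type and 24 for comparisons between cell types. A call was an adjusted p (Benjamini-Hochberg) at or under 0.05. Samples of a group came from different mice. The study's methods used limma-voom on normalised TPM, and limma 3.58.1 and DESeq2 1.42.0 were run as alternatives. The fits were tested on simulated data. Correlations used log2 CPM with a prior count of 2.

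Named genes were the 10 members, Cd4, Cd8a, Ctnnb1 and H2-Ea-ps, every gene of the splenic macrophage list, the 3 tested genes of each other list with the highest mean TPM over CD4 post-tx libraries, and the 10 genes most like the members; H2-Eb1, Lyz1 and Hmgxb3 were added after values were seen, and 1 gene that the rule names, with the count of its list, is not reported here. The members and lists were chosen with earlier results of these data known. Per the study's methods both cell types were sorted from every mouse, so the CD4 and CD8 libraries of a genotype and time point share 3 mice. That a replicate number marks the same mouse in both is not stated, and the deviations of same-numbered samples correlated at -0.263 to 0.198. The reported fits therefore have no block and treat these libraries as independent, and the replicate block was run as an alternative.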

Additional observations from a re-analysis of the deposited data

Results flagged for a closer look

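The following differences between groups are listed because the model term for the difference had an adjusted p at or under 0.05 in edgeR. They are built from the contrasts of time and cell type that were known when the genes were chosen, so they are a description and no independent evidence. The change from pre-tx to post-tx was more positive in Cat-Tg than in WT for 8 genes in CD4 libraries (7.28% of all genes tested were called higher), by 3.25 for Csf1r, 3.02 for Cd68, 2.49 for Adgre1, 2.37 for C1qc, 2.24 for C1qa, 2.07 for C1qb, 1.98 for Mertk and 1.97 for Lyz2 on the log2 scale. In CD8 libraries (5.93% called higher) it was more positive for the same 8 genes, by 6.46 for Csf1r, 5.73 for Adgre1, 5.46 for Mertk, 4.8 for C1qb, 4.34 for C1qc, 4.13 for Cd68, 3.96 for Lyz2 and 3.62 for C1qa. All 16 values rest on the WT pre-tx libraries, in which the coreceptor counts did not match the labels, and none can be given without them. The genotype difference after transplant was larger in CD4 than in CD8 libraries for Cd68, by 2.25, and this was no longer called with library totals, no filter, counts from length-scaled TPM, only the libraries compared or the replicate block, without the WT pre-tx libraries, or with any of 11 of the 12 post-tx libraries left out. The cause was not tested for any of these.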

How the results depend on the processing

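The 8 of 10 genes called higher in Cat-Tg CD4 post-tx libraries stayed at 8 under every alternative run, with or without the WT pre-tx libraries and with any 1 library left out (8 to 8), and their log2 fold changes ranged from 1.74 for Spic to 3.32 for Csf1r. All these runs use the same chosen genes and the same series. They cannot remove the effect of that choice, of which the genotype test is not independent. The count in CD8 post-tx libraries, 1 as reported, was 0 with limma-voom, DESeq2 size factors, only the libraries compared, the replicate block or without the WT pre-tx libraries, and 0 to 1 with a library left out. The genotype by cell type count, 1 as reported, was 2 with DESeq2 and 0 with library totals, no filter, counts from length-scaled TPM, only the libraries compared, the replicate block or without the WT pre-tx libraries, and 0 to 4 with a library left out. Other splenic macrophage genes called higher in Cat-Tg CD8 post-tx libraries, 3 as reported, were 5 with DESeq2 or with no filter. With a log2 fold change of at least 2 also required, 1 gene was called in CD4 pre-tx (4 as reported, 2 to 3 with a library left out) and 3 splenic macrophage genes rose in WT CD4 (6 as reported).

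Some values that were not called changed sign. Cd68 in CD8 post-tx, -0.03 as reported, was 0.07 with limma-voom, 0.25 with library totals, 0.06 with no filter, 0.15 with counts from length-scaled TPM and 0.01 with only the libraries compared, and -0.17 to 0.52 with a library left out. Left-out libraries gave Spic -0.53 to 0.62 and Marco -2.65 to 1 in CD8 post-tx, C1qa -0.06 to 0.7, C1qc -0.11 to 0.45 and Csf1r -0.86 to 0.17 in CD4 pre-tx, and Adgre1 -0.79 to 1.1 and Marco -0.06 to 3.64 in the genotype by cell type difference, where the replicate block gave Adgre1 -0.08. The cause was not tested. The CD4 and CD8 libraries of a genotype and time point come from the same mice, but it is not stated that a number marks the same mouse in both, and the replicate block changed no other count by over 1.5 times. With 3 libraries a group, genes under a few CPM, such as Marco in CD8 libraries, could not be compared closely.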
